A study of Mus musculus with 4 samples.

Results

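Semaphorins and their receptors, the plexins and neuropilins, were measured by RNA-Seq in brain from Ids-ko mice, a model of mucopolysaccharidosis type II (Hunter syndrome). The members are all genes of the count table whose symbol begins with Sema and a digit or with Plxn, or is Nrp1 or Nrp2. This gave 31 of 12700 genes, of which 20 are semaphorins (the ligands), 9 are plexins and 2 are neuropilins (the receptors). Each of the 4 conditions is 1 library made from the pooled polyA RNA of 7 mice. All mice were C57BL/6 and 9 months old, and no treatment is stated. CxH is cerebral cortex (Cx) of Ids-ko mice, in which the Ids gene is disrupted in every cell, and CxWT is cerebral cortex of wild type (wt) mice. MH and MWT are the dissected block of midbrain, diencephalon and hippocampus (M), striatum included, of Ids-ko and of wt mice. By the study's methods each brain was divided into both areas, and the wt mice were littermates, so the Cx and M libraries of a genotype label share their mice and are not separate animals. There is no replicate library, so a test on the reads compares 2 libraries and not the conditions, and the spread between mice or pools is not known. The pools also hide how single mice differ.

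The libraries held between 16380080 (MWT) and 23475080 (CxH) reads on genes. The members had between 70 and 6024 reads each, and together 0.184% to 0.212% of the reads on genes. All but Sema3b and Sema3g had at least 100 reads in every library. Levels are given as RPM, reads per 1000000 aligned reads, on which 3 reads are 0.0779 to 0.104 RPM. Ids codes for iduronate 2-sulfatase, the lysosomal enzyme that is missing in the disease. CxH had 135 RPM of it, CxWT 354, MH 368 and MWT 155, so the library labelled MH had more Ids reads than the library labelled MWT, against the labels. The area labels were checked with marker genes of cortical excitatory neurons (16 of 16 in the table), whose summed levels were 2653, 475, 2323 and 376 RPM in the order CxH, CxWT, MH, MWT. Markers of midbrain and diencephalon (22 of 26 in the table) summed to 89.3, 751, 108 and 683 RPM in that order. En1, a transcription factor of the midbrain, and Slc6a4, the serotonin transporter of raphe neurons, had at most 3 reads in CxH and in MH. The markers of the 2 areas thus separated CxH and MH from CxWT and MWT, and not Cx from M as labelled. Whether labels were exchanged between libraries was not tested. Read by the markers, each ratio between an Ids-ko and a wt label would set cortex against midbrain and diencephalon, and CxH vs. MH and CxWT vs. MWT would each set a library low in Ids against one high in Ids, CxH and MWT being the low ones. Libraries keep their labels below, lists of 4 levels follow the order CxH, CxWT, MH, MWT, and every direction is that of the labels. In a bulk library, fewer cells of a type and less RNA per cell cannot be told apart.

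Semaphorins are guidance cues that steer growing axons, dendrites, blood vessels and immune cells, mostly by repulsion, and that keep acting on synapses in the adult brain. Class 3 semaphorins are secreted, classes 4, 5 and 6 span the membrane, and class 7 is held in it by a lipid anchor. Plexins are their transmembrane receptors and carry, inside the cell, a domain that switches off small G proteins of the Ras and Rap family. Most class 3 semaphorins bind a neuropilin, which forms a complex with an A-type plexin, while classes 4 to 7 bind plexins directly.

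Upstream sequence is shown for 3 members whose levels differed between the libraries labelled Ids-ko and wt in both areas, 2 of them higher (Plxnd1 and Sema3a) and 1 lower (Sema5a). Each is the 250 bases before the start of the gene in RefSeq (GRCm38.p6), 5′ to 3′ on the strand of the gene, found once and without mismatch in the NCBI37/mm9 genome that the authors used. They lie at chr6:115945024-115945273 (minus strand) for Plxnd1, chr5:13396534-13396783 (plus strand) for Sema3a and chr15:32174318-32174567 (plus strand) for Sema5a. The Sema3a window is in an intron of a longer annotated Sema3a transcript, and part of the Sema5a window overlaps an exon of the non-coding gene Snord123. Capitals mark the GC box GGGCGG on either strand.
Plxnd1: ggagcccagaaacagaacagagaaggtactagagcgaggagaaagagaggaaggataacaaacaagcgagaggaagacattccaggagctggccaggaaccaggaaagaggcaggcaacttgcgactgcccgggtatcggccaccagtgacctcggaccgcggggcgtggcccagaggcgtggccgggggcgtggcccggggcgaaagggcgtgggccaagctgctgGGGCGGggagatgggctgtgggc
Sema3a: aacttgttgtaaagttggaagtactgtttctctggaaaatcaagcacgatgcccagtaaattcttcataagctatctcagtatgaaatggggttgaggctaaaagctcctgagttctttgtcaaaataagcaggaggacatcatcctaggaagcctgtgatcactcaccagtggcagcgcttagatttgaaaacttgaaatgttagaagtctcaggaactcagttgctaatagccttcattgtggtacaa
Sema5a: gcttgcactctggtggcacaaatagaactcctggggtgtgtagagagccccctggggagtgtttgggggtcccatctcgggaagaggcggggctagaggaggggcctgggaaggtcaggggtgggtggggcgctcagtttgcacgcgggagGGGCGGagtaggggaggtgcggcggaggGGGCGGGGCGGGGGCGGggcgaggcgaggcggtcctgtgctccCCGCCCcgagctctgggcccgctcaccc

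The GC box stood 1 time before Plxnd1, 0 times before Sema3a and 5 times before Sema5a, each overlapping match counted. These windows held 16, 2 and 17 CG pairs, and 64.8%, 40.8% and 72.0% of their bases were G or C. Sema3a, with the poorest window in G and C, and Plxnd1 were both higher in the libraries labelled Ids-ko. Of the 31 members, 26 matched the RefSeq table by symbol, with 37 windows. Of these windows, 27 (73.0%) held a GC box, against 32.7% of the 32851 windows of the whole RefSeq table. The members are all genes of the count table, to which the 32851 windows were not limited. The part of this in the shares given here was not tested. The TATA box TATAAA was in none of the members' windows and in 12.4% of all windows. CCAAT was in 18.9% of the members' windows and in 33.8% of all. The E-box CANNTG, which can share bases with CCAAT, was in 51.4% and 66.2%. The median window of the members held 13 CG pairs and 64% G and C, and the median of all windows 6 and 52.4%. These are matches of letters on either strand, not sites of binding.

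Per length of the transcript (RPKM, the RPM per kilobase of the longest coding transcript), the ligand Sema7a stood first, at 47.5, 29.3, 37.7 and 23.5 RPKM. Sema7a acts on axons and on synapse removal through Plxnc1 and integrins. The next by the median over the libraries were Sema6b (12.7 RPKM), Sema6d (12.1), Plxna1 (11.2) and Plxnb1 (10.9). These 4 overlapped in their ranges over the libraries, and their order is not separated. Sema3g and Sema3b, both secreted, stood last at 0.783 and 0.771 RPKM. Of the 8 members with the highest median, 5 were ligands, while the 11 with the lowest were all ligands. Plxnd1 ranged from 2.02 RPKM in MWT to 12.2 in CxH, the widest range of any member as a ratio, at 6.02.

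**Figure D1:**
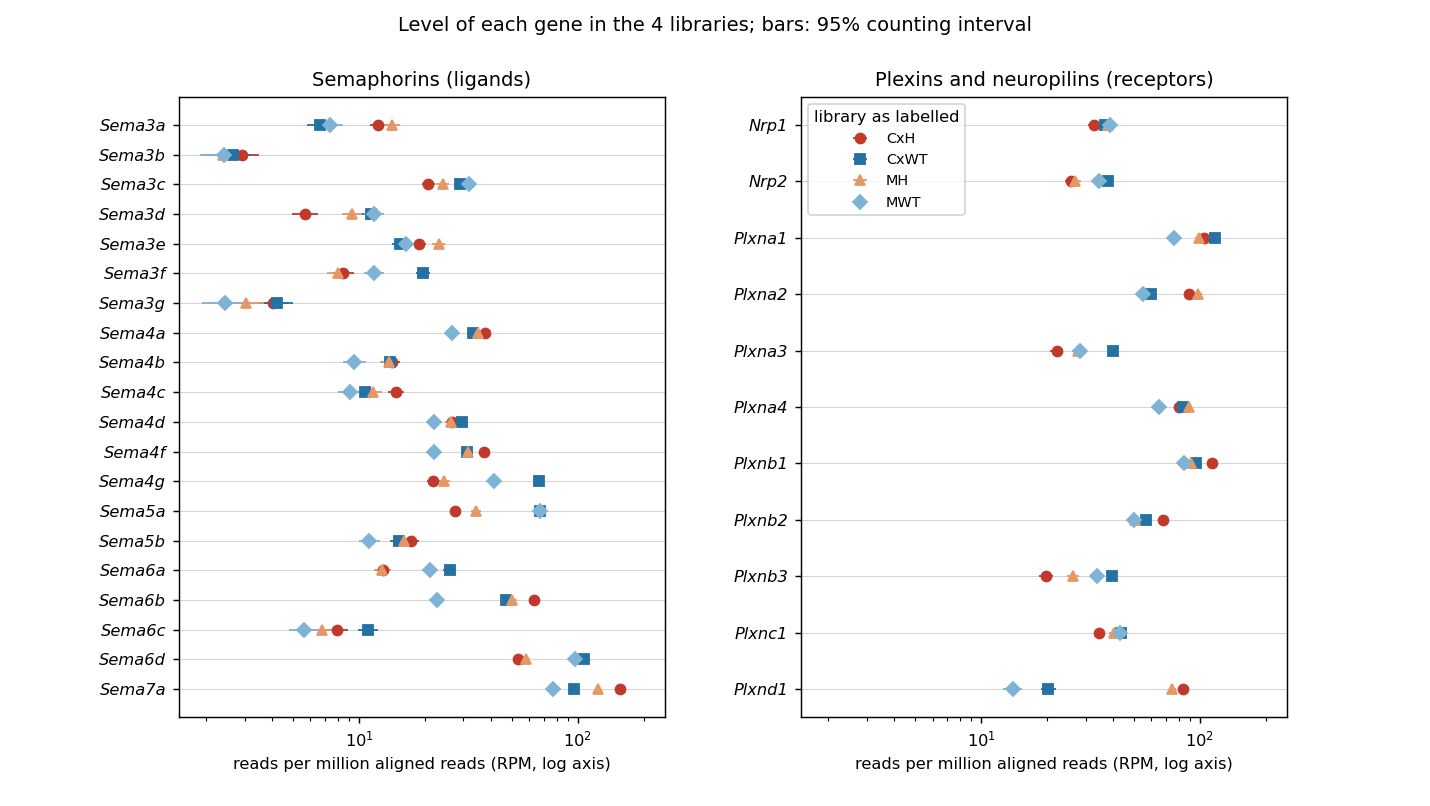
Level of the 31 members in each of the 4 libraries, in RPM on a log axis, ligands on the left and receptors on the right; points are single libraries and bars are the 95% exact counting intervals. Plxnd1 sits at 84.1 and 74.8 RPM in CxH and MH and at 20.3 and 13.96 RPM in CxWT and MWT, while Sema4g, Sema5a, Sema6a and Sema6d sit lower in CxH and MH than in CxWT and MWT.

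To see which genes differ between the Ids-ko and wt labels within an area, CxH was set against CxWT and MH against MWT. A gene was called if a Poisson likelihood ratio test of its counts had an unadjusted p-value under 0.05 and its log2 ratio was 0.7 or more in either direction. In CxH vs. CxWT, 10 of 31 members (32.3%) were called, against 20.9% of all genes. Of these, 2 were higher in the library labelled CxH (6.45%, against 9.46% of all genes) and 8 were lower (25.8%, against 11.5%). In MH vs. MWT, 8 members (25.8%) were called, against 25% of all genes, with 4 higher (12.3% of all genes were) and 4 lower (12.7% of all genes were). Among the 11010 genes that each library read 100 times or more, 17.4% were called in CxH vs. CxWT and 21.6% in MH vs. MWT. The median log2 ratio of the members was -0.07 in Cx and 0.26 in M, beside -0.09 and -0.07 over all genes. TMM factors raise every ratio by 0.09 in Cx and 0.06 in M, which puts the members' medians at 0.03 and 0.32. Corrected for GC content and length they were -0.17 and -0.18 (-0.06 and -0.05 over all genes), so the sign of each median depends on the processing. In M the split depended on the scaling. With TMM or DESeq2 factors 5 members were higher and 1 was lower, and once ratios were corrected for GC content and transcript length 2 were higher and 6 lower.

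Called in both areas were 6 members, which are 60% of those called in Cx and 75% of those called in M, and all 6 had the same direction. With TMM or DESeq2 factors, or at an assumed coefficient of variation of 0.2 between pools, Sema4g, Sema6a and Sema6d were no longer called in M. Plxnd1 and Sema3a were higher under the Ids-ko label, and Sema4g, Sema5a, Sema6a and Sema6d were lower. Over all genes, the calls with the same direction in both areas were 60.6% of those in Cx and 50.8% of those in M. The ratio had the same sign in both areas for 25 of 31 members (80.6%) and for 72.8% of all genes. In 21 members the 2 libraries labelled Ids-ko did not overlap with the 2 labelled wt (67.7%, against 61.2% of all genes), 10 being higher under the Ids-ko label (24.3% of all genes were) and 11 lower (36.9% of all genes were). The members' shares of non-overlapping levels lay near those of all genes. Overlap was read from the levels alone, without their counting intervals.

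**Figure D2:**
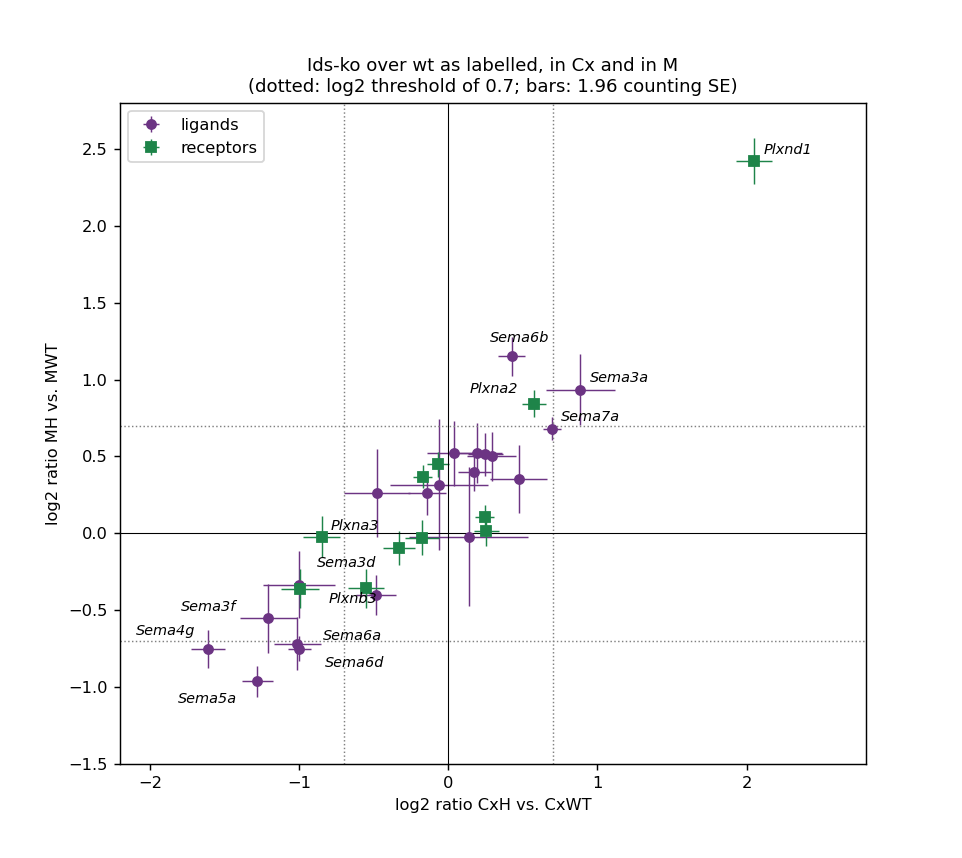
log2 ratio of the RPM of each member in CxH vs. CxWT (x axis) and in MH vs. MWT (y axis), ligands as circles and receptors as squares, with bars of the 95% interval from the counting standard errors and dotted lines at the log2 threshold of 0.7. Plxnd1 stands alone at the upper right, at 2.05 and 2.42, and Sema4g, Sema5a, Sema6a and Sema6d lie together at the lower left.

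Among the receptors, Plxnd1 had the largest ratio of any member in both areas. It is the receptor of Sema3e, which it binds without a neuropilin, and is known from growing blood vessels, the thymus and the wiring of forebrain neurons. The gene lies on chromosome 6 from 115904829 to 115945023. Plxnd1 had 84.1 RPM in CxH and 20.3 in CxWT, and 74.8 in MH and 13.96 in MWT. The 2 libraries labelled Ids-ko were thus 3.69-fold or more above both labelled wt. The log2 ratio was 2.05 (95% exact interval from counting, 1.93 to 2.17) in CxH vs. CxWT and 2.42 (2.27 to 2.58) in MH vs. MWT. Of the 11010 well read genes (100 reads or more in each library), 50 had a higher ratio in CxH vs. CxWT and 28 in MH vs. MWT. Corrected for GC content and length, the ratio of Plxnd1 was 1.71 in Cx and 1.55 in M. Its ligand Sema3e was called in no pair, with 18.8, 15.4, 23.1 and 16.3 RPM.

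The other plexins moved less. Plxna2, a receptor of class 6 semaphorins on neurons, had 88.9, 59.7, 98.5 and 54.9 RPM. It was higher in both libraries labelled Ids-ko, and its log2 ratio of 0.84 (0.76 to 0.93) was called in MH vs. MWT, but not after the correction for GC content and length (0.59). In CxH vs. CxWT the ratio of Plxna2 was 0.58, under the threshold. Plxna3, which pairs with neuropilins as a receptor of class 3 semaphorins, had 22.2, 40.01, 27.8 and 28.3 RPM. The library labelled CxWT was the highest and CxH the lowest, with a log2 ratio of -0.85 (-0.97 to -0.72) in Cx and -0.02 in M. Corrected for GC content and length, the ratio of Plxna3 was -1.04 in Cx and -0.49 in M. Plxnb3, a B-type plexin found on oligodendrocytes, had 19.8, 39.6, 26.4 and 33.9 RPM, higher in both libraries labelled wt. Its log2 ratio was -0.997 (-1.13 to -0.87) in Cx and -0.36 in M, the second of these not called. Plxna3 and Plxnb3 are both on the X chromosome. Of the 11 receptors, 1 was called higher and 2 lower in Cx (against 9.46% and 11.5% of all genes), and 2 higher and 0 lower in M (12.3% and 12.7%). The neuropilins Nrp1 and Nrp2, which also bind forms of VEGF, were called in none of the 6 pairs, and ranged from 32.6 to 38.7 RPM and from 25.8 to 37.9 RPM.

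Class 3, the secreted semaphorins, had members in both directions. Sema3a, the repellent of cortical and sensory axons, is on chromosome 5 from 13125593 to 13602565 and had 12.3 RPM in CxH and 6.63 in CxWT, and 14.1 in MH and 7.39 in MWT. Its 2 libraries labelled Ids-ko lay above both labelled wt, and the log2 ratio was 0.89 (0.65 to 1.12) in Cx and 0.93 (0.70 to 1.17) in M. Sema3f, which acts through Nrp2 and prunes spines and axons, had 8.49, 19.6, 8.003 and 11.7 RPM. Its log2 ratio was -1.21 (-1.40 to -1.02) in Cx, called, and -0.55 in M, not called. Sema3d, known from the heart and vessels, had 5.69, 11.4, 9.29 and 11.7 RPM, lowest in CxH. It was called lower in Cx, at -1.002 (-1.25 to -0.76), and had -0.33 in M. After the correction for GC content and length it was not called in Cx (-0.56). Whether the ratios of Sema3f or Sema3d differ between the areas could not be tested with 1 library each. Sema3g, an endothelial ligand of Nrp2, had 4.05, 4.22, 3.05 and 2.45 RPM and was called in neither. Sema3b, Sema3c and Sema3e were called in no pair.

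Of the 6 class 4 members, 1 was called in each area, and this was Sema4g (16.7%, against 20.9% of all genes in Cx and 25% in M). Sema4g is a transmembrane ligand of Plxnb2, known from the cerebellum, on chromosome 19 from 45063591 to 45077887. It had 21.8 RPM in CxH and 66.7 in CxWT, and 24.5 in MH and 41.5 in MWT. Both libraries labelled wt were above both labelled Ids-ko, and the log2 ratio was -1.61 (-1.73 to -1.497) in Cx and -0.76 (-0.88 to -0.63) in M. In Cx this was the lowest ratio of any member, and 100 of the 11010 well read genes had a lower one. Sema4c, also a ligand of Plxnb2, had 14.8, 10.7, 11.5 and 9.05 RPM and Sema4f, found at synapses, 37.2, 31.3, 31.5 and 22.0 RPM. For both, CxH was the highest library and MWT the lowest, and neither was called in Cx or in M. Sema4a, Sema4b and Sema4d were called in no pair.

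In class 5, whose extracellular part carries thrombospondin repeats, Sema5a had 27.6 RPM in CxH and 67.05 in CxWT, and 34.3 in MH and 66.95 in MWT. Sema5a can attract or repel axons depending on the proteoglycan it meets, heparan or chondroitin sulfate, and lies on chromosome 15 from 32174568 to 32626096. The 2 libraries labelled wt were close to each other and stood above both labelled Ids-ko. The log2 ratio was -1.28 (-1.39 to -1.17) in Cx and -0.96 (-1.07 to -0.86) in M. The other member of the class, Sema5b, had 17.4, 15.2, 16.01 and 11.2 RPM and was called in no pair.

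Class 6 semaphorins are transmembrane ligands of A-type plexins. Sema6d had 53.3, 106, 57.97 and 97.6 RPM, and Sema6a had 12.9, 25.998, 12.8 and 21.1 RPM. Both were lower in each library labelled Ids-ko than in each labelled wt. The log2 ratio of Sema6d was -0.999 (-1.08 to -0.92) in Cx and -0.75 (-0.83 to -0.67) in M. Sema6a had -1.01 (-1.17 to -0.85) in Cx and -0.72 (-0.90 to -0.54) in M. Sema6b went the other way, with 63.3, 47.2, 50.2 and 22.6 RPM and a log2 ratio that was 0.42 in Cx, not called, and 1.15 (1.02 to 1.28) in M, called. The library labelled MWT was the low one for Sema6b, and after the correction for GC content and length its ratio in M was 0.32. Sema6c, with 7.92, 11.04, 6.74 and 5.63 RPM, was called in neither of these comparisons. In class 7, Sema7a had 156, 96.6, 124 and 77.5 RPM, highest in the 2 libraries labelled Ids-ko. Its log2 ratios, 0.696 in Cx and 0.68 in M, fell just short of the threshold. With TMM factors they were 0.79 and 0.74 and both were called. Its ratios corrected for GC content and length were 0.46 and 0.22. It lies on chromosome 9 from 57787920 to 57810671.

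The area labels were set against each other within a genotype label, CxH against MH and CxWT against MWT. In CxH vs. MH, 1 member was called (3.23%, against 3.5% of all genes, 2.43% higher and 1.06% lower). This was Sema3d, lower in CxH, at -0.71 (-0.96 to -0.46). It was no longer called after the correction for GC content and length (-0.37) or at the coefficient of variation of 0.2. In CxWT vs. MWT, 4 members were called (12.9%, against 7.54% of all genes), and all 4 were ligands and higher in CxWT (5.43% of all genes were higher and 2.11% lower). They were Sema6b at 1.06 (0.93 to 1.19), Sema6c at 0.97 (0.70 to 1.25), Sema3g at 0.78 (0.36 to 1.22) and Sema3f at 0.74 (0.55 to 0.93). These 4 had transcripts of 56.2% to 63.5% G and C, and none was called after the correction for GC content and length, with ratios of 0.21 to 0.44. Plxnd1 was not called between the area labels, with a ratio of 0.17 (0.10 to 0.24) under the Ids-ko label and 0.54 (0.36 to 0.72) under the wt label. The libraries labelled Cx and M did not overlap in 9 members (29.0%, against 19.7% of all genes), 8 of them higher in Cx (13.5% of all genes were) and Nrp1 lower (6.17% of all genes were).

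The 2 remaining pairs differ in both labels. In CxH vs. MWT, 13 members were called (41.9%, against 30.7% of all genes), and 9 were in the other pair, MH vs. CxWT (29.0%, against 15.3%). In CxH vs. MWT, 7 were higher (15.6% of all genes were) and 6 lower (15.1% of all genes were), and with the totals of the count columns as scaling 3 and 7. Plxnd1 had its largest ratio there, 2.59 (2.44 to 2.74), and Sema6b its own, 1.49 (1.36 to 1.61). Corrected for GC content and length these were 1.57, below the 1.71 of Plxnd1 in CxH vs. CxWT, and 0.46, under the threshold. Sema7a was called there alone, at 1.01 (0.94 to 1.08), as were Sema4f at 0.76 (0.62 to 0.89) and Sema4c at 0.71 (0.50 to 0.93), whose corrected ratios were 0.40, 0.14 and 0.11. In MH vs. CxWT, whose Ids levels were 368 and 354 RPM, 3 members were higher (6.41% of all genes were) and 6 lower (8.89% of all genes were). The higher ones were Plxnd1 at 1.88 (1.76 to 2.01), Sema3a at 1.09 (0.86 to 1.32) and Plxna2 at 0.72 (0.64 to 0.80). Plxna2 was not called after the correction for GC content and length (0.62) or at the coefficient of variation of 0.2. The lower ones were Sema4g, Sema3f, Sema6a, Sema5a, Sema6d and Sema6c, from -1.44 to -0.71. Sema6c, the last of these, was not called with TMM factors (-0.60), DESeq2 factors (-0.60) or column totals (-0.68), or at the coefficient of variation of 0.2. Each of Plxnd1, Sema3a, Sema4g, Sema5a, Sema6a and Sema6d was called in the same 4 of the 6 pairs, those that set a library labelled Ids-ko against one labelled wt. With TMM or DESeq2 factors, or the coefficient of variation of 0.2, Sema6a lost its call in CxH vs. MWT as well as in MH vs. MWT, where Sema4g and Sema6d lost theirs. Sema3a lost its call in CxH vs. MWT with column totals (0.62) and at the coefficient of variation of 0.2. The 6 pairs share libraries and are not independent of each other.

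**Figure D3:**
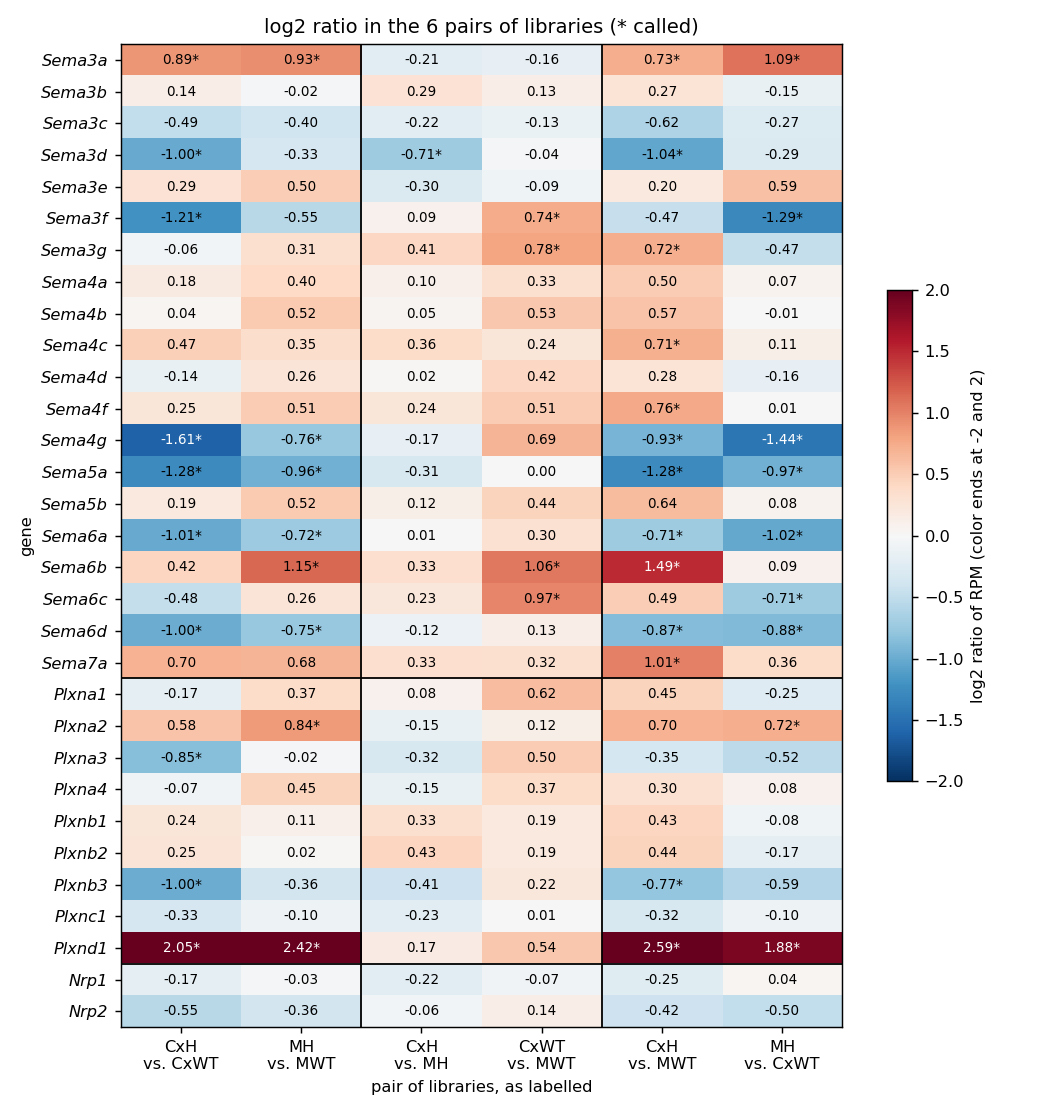
log2 ratio of the RPM of each of the 31 members (y axis, ligands above, receptors below) in the 6 pairs of libraries (x axis), in color from -2 to 2, with a star where the gene was called. The 2 pairs that set Ids-ko against wt labels within an area and the 2 pairs that differ in both labels carry 10, 8, 13 and 9 stars, and the 2 pairs of area labels 1 and 4.

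The 14 members called in no pair were Nrp1, Nrp2, Plxna1, Plxna4, Plxnb1, Plxnb2, Plxnc1, Sema3b, Sema3c, Sema3e, Sema4a, Sema4b, Sema4d and Sema5b. Over the 6 pairs their log2 ratios lay between -0.62 and 0.64, and their highest library was 1.19 to 1.55 times their lowest. They are 45.2% of the members, against 58.2% of all genes called in no pair, and include 7 of the 11 receptors (63.6%) and 7 of the 20 ligands (35%). Plxna1, Plxna4 and Plxnb1, the most read of them, had 76.4 to 117, 65.1 to 88.8 and 84.4 to 114 RPM over the 4 libraries.

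Ligands were set against receptors as a whole. The ligands summed to 564, 644, 529 and 517 RPM, and the receptors to 674, 632, 661 and 523 RPM. The ligands thus took 45.6% of the members' reads in CxH (95% exact binomial interval 45.1 to 46.01), 50.5% in CxWT (49.99 to 50.9), 44.4% in MH (43.98 to 44.9) and 49.7% in MWT (49.2 to 50.3). The share was lower in both libraries labelled Ids-ko than in both labelled wt. It weights the genes by their reads and per-gene medians gave another order. The median log2 ratio of the ligands was -0.01 in Cx and 0.29 in M, and that of the receptors was -0.17 and 0.02. With TMM factors the ligands' median in Cx was above 0, at 0.08, and that of the receptors was -0.08. Corrected for GC content and length, both medians in M were below 0, at -0.12 for the ligands and -0.30 for the receptors. The ligands' median was therefore 0.16 above the receptors' in Cx and 0.27 in M, while the summed share pointed the other way. The difference in Cx was -0.0071 after the correction for GC content and length and 0.054 with plexins alone. The summed receptors were higher under the Ids-ko label in both areas, in Cx by less than the difference in Plxnd1 alone (84.1 against 20.3 RPM), while the summed ligands were lower in Cx and slightly higher in M. Sema4g, Sema5a and Sema6d were lower under the Ids-ko label, and the ligands Sema7a and Sema6b had more RPM there. In the other pairs the difference of medians was 0.21 (CxH vs. MH), 0.13 (CxWT vs. MWT), 0.08 (CxH vs. MWT) and -0.05 (MH vs. CxWT). Corrected for GC content and length, these were 0.04, 0.12, 0.19 and 0.06 in the same order. None of these differences was tested.

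A set of 8 textbook pairs of ligand and receptor was read side by side. A single receptor was chosen for each ligand, and other receptors of the same ligand were not set beside it. In Sema3e and Plxnd1 the ligand had ratios of 0.29 in Cx and 0.50 in M and the receptor 2.05 and 2.42. Sema3a had 0.89 and 0.93, and its receptor part Nrp1 -0.17 and -0.03. Sema3f and Nrp2 were both below 0, at -1.21 and -0.55 for the ligand and -0.55 and -0.36 for the receptor. In Sema6a and Plxna2 the sides went apart in both areas, with -1.01 and -0.72 for the ligand against 0.58 and 0.84 for the receptor. Sema7a had 0.696 and 0.68, and Plxnc1 -0.33 and -0.10. Sema5a had -1.28 and -0.96, with -0.85 and -0.02 for Plxna3. Sema6d had -0.999 and -0.75, with -0.17 and 0.37 for Plxna1, and Sema4d -0.14 and 0.26, with 0.24 and 0.11 for Plxnb1. The intervals of Nrp1 (-0.14 to 0.08), Plxna3 (-0.16 to 0.11) and Plxnc1 (-0.21 to 0.01) in M include 0. The correction for GC content and length turned Nrp1 to 0.03 in Cx and 0.05 in M, Plxna1 to -0.30 in M, Plxnb1 to -0.02 in Cx and -0.57 in M, and Sema4d to about 0 in M. No direction is read for any of these.

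GC content of the transcript moved with the ratios in most pairs. The median GC content was 56.2% over the members and 50.4% over the well read genes with a known coding transcript. Over the 31 members the Spearman correlation of the log2 ratio with GC content was 0.29 (CxH vs. CxWT), 0.34 (MH vs. MWT), 0.76 (CxH vs. MH), 0.77 (CxWT vs. MWT), 0.51 (CxH vs. MWT) and 0.06 (MH vs. CxWT). Over 10707 genes it was 0.46, 0.49, 0.58, 0.63, 0.69 and 0.16, so MH vs. CxWT had the weakest relation in both sets. These are descriptions across genes that share the same libraries. The ratios of the 6 members called in both areas kept their direction after the correction for GC content and length, with Sema3a at 1.29 and 1.19, Sema4g at -1.85 and -1.27, Sema5a at -1.13 and -1.02, Sema6a at -0.96 and -0.82 and Sema6d at -0.96 and -0.86. Sema3d in Cx (-0.56) and Plxna2 (0.59) and Sema6b (0.32) in M fell under the threshold with it, and Plxnb3 (-0.85) and Sema3f (-1.10) in M and Sema6c (-0.85) in Cx came past it. The part of GC content in the other results was not tested.

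**Figure D4:**
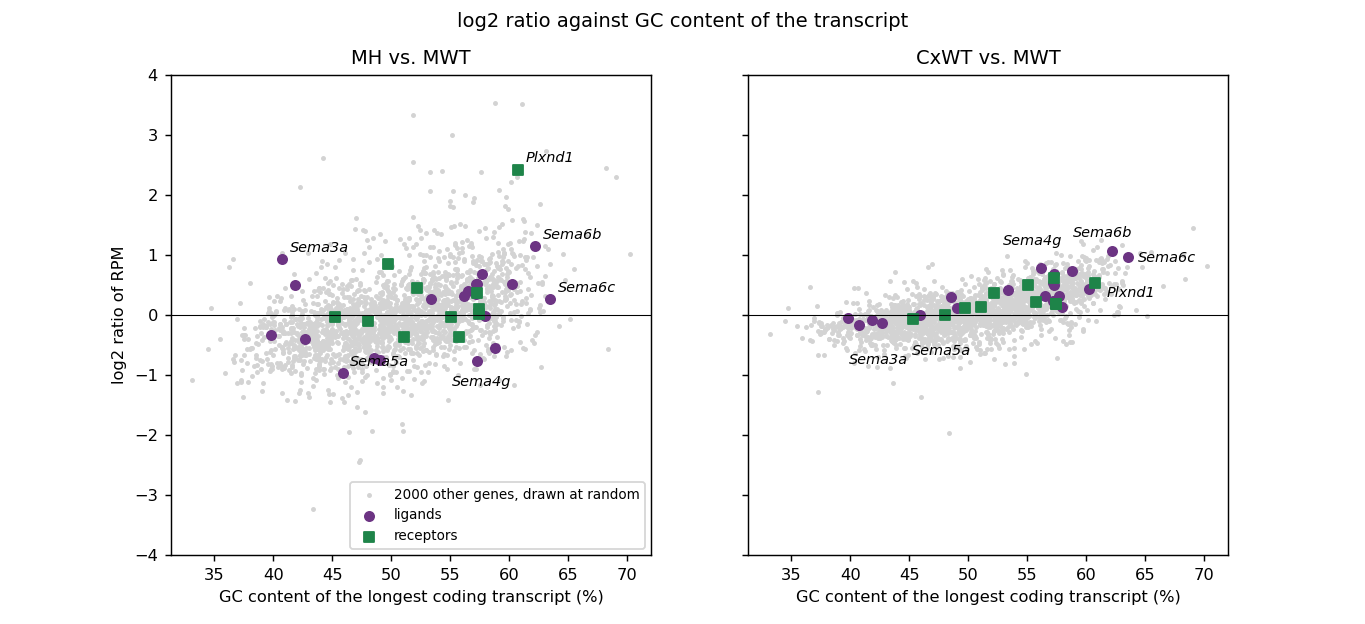
log2 ratio of the RPM against the GC content (%) of the longest coding transcript in MH vs. MWT (left) and CxWT vs. MWT (right), for ligands (circles), receptors (squares) and 2000 other well read genes (grey). In CxWT vs. MWT the members lie along the grey band, from Sema3a (40.8% GC, ratio -0.16) to Sema6b (62.2%, 1.06), while in MH vs. MWT Plxnd1 (60.8%, 2.42) lies above it and Sema4g (57.3%, -0.76) below.

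Cell type markers also moved with the same libraries. The median log2 ratio of the cortical excitatory neuron markers was 2.01 in Cx and 2.21 in M, beside 2.05 and 2.42 for Plxnd1, and 14 of 16 were called higher in each area. Markers of midbrain and diencephalon had medians of -4.03 and -3.73, with 21 and 19 of 22 called lower. Those of striatal medium spiny neurons summed to 1246, 510, 1062 and 497 RPM, with 8 called higher in each area and 1 lower in M. Their list of 12 names holds Drd1 under 2 names, and its 11 genes are all in the table. Hippocampal markers (7 of 10) summed to 185, 132, 178 and 95.8 RPM, with 1 called higher and 1 lower in Cx and 5 higher in M. Mature oligodendrocyte markers (15 of 15) summed to 5177, 9735, 5324 and 7896 RPM and had medians of -0.83 and -0.67, with 10 and 7 called lower. The 11 members with lower levels in both CxH and MH than in both CxWT and MWT were Nrp2, Plxna3, Plxnb3, Plxnc1, Sema3c, Sema3d, Sema3f, Sema4g, Sema5a, Sema6a and Sema6d (35.5%, against 36.9% of all genes). This counts levels alone, and for Plxna3 and Plxnc1 the counting intervals of MH and MWT overlap. Oligodendrocyte precursor markers (8 of 9) summed to 336, 463, 316 and 405 RPM, with 2 called lower in Cx and 1 in M. None of these markers was at 0 outside the midbrain and diencephalon list, in which 2 were at 0 in MH. Astrocyte (11 of 11), endothelial (13 of 13) and microglial (12 of 12) markers summed to 4203, 3184, 3408 and 3870 RPM, to 388, 325, 331 and 328 RPM and to 756, 410, 478 and 631 RPM. They had 2 higher and 1 lower, 2 and 0, and 7 and 0 calls in Cx, and 0 higher and 3 lower, 0 and 1, and 0 and 4 in M. The part of these cell types in the members' ratios was not tested, and the label Ids-ko or wt and the split of the markers cannot be told apart, since they fall on the same libraries. The label Cx or M and the level of Ids (low in CxH and MWT) were crossed with that split.

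Other genes of the pathway were read from lists written with the design, and their counts stand beside 20.9% of all genes called in Cx and 25% in M. The list of semaphorin co-receptors had 16 entries in the table (of 19 listed). Of these, 2 were called higher and 3 lower in Cx, and 0 higher and 3 lower in M. The entries include Sltm, which is not a semaphorin co-receptor. Sltm was called in neither area, at -0.10 and -0.14, and is counted in the medians of the list. Tyrobp and Trem2, which signal with plexin A1 in myeloid cells and are also in the microglial list, were higher in CxH than in CxWT, at 1.36 and 0.96, and had -1.497 (called lower) and -0.64 (not called) in MH vs. MWT. Sdc2, a heparan sulfate proteoglycan, was called lower in both areas, at -0.97 and -0.81. Robo1, the Slit receptor, was called lower in Cx at -0.73 and had -0.56 in M. Of 38 genes that carry plexin signals inside the cell (of 39 listed), 5 were called higher and 1 lower in Cx, and 8 higher and 4 lower in M. Mical2, a monooxygenase that takes actin filaments apart, had 199, 45.7, 180 and 30.9 RPM, with ratios of 2.12 and 2.54 that were close to those of Plxnd1. Pip5k1c, a kinase that makes a membrane phosphoinositide needed at adhesions, had ratios of 1.34 and 1.66, and the small G protein Rnd3 -0.74 and -0.76, all called. Among the 5 collapsin response mediators (CRMP), which relay Sema3a to microtubules, Dpysl3 at -1.13 and -1.01 and Dpysl5 at -1.07 and -0.72 were called lower in both areas, and 1 of the others was called, higher in M. Of 3 VEGF ligands of the neuropilins in the table (of 5 listed), 0 were called in Cx and 1 was called lower in M. In Cx the medians of the 4 lists were -0.14, 0.07, -0.19 and -0.22 on the log2 scale, and in M -0.20, 0.20, -0.44 and -0.28.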

How the data were processed

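Polyadenylated RNA of 7 pooled mice per condition was sequenced on a SOLiD 3 Plus instrument, 1 library for each of CxH, CxWT, MH and MWT. The authors aligned the reads to NCBI37/mm9 with PASS, allowing at most 2 mismatches, used only reads that fell on 1 gene, required more than 50% of a gene's length to be covered, and deposited raw counts per gene without normalization. The gene annotation is not given in the sources used here. The table has no unused sample column.

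RPM are the counts scaled by each library's aligned reads. All 12700 genes entered a Poisson likelihood ratio test, and those that had an unadjusted p-value under 0.05 and log2 ratios 0.7 or more from 0 were called, as in the study. A count of 0 was set to 1 in ratios. Intervals are exact Clopper-Pearson at 95% and cover counting error only, as does the floor of 3 reads. Positions, GC content and length of the longest coding transcript came from GENCODE vM1. Genes were matched by Ensembl ID, or else by symbol or synonym, for 12423 genes, with GC content for 12232. The members and lists were chosen with earlier results of these data known. Values in every library are given for each member called in 1 or more of the 6 pairs with at least 100 reads in either library. Of the pathway lists, the called genes with the 2 highest and 2 lowest ratios in CxH vs. CxWT and at least 100 reads in either library are named. Exceptions, chosen after their values were seen, are Sema3e, Sema5b and the members called in no pair of which levels are given. The pairs of ligand and receptor are textbook pairs. Alternatives were scaling by column totals, by TMM factors or by DESeq2 size factors, a filter of at least 100 reads, a log2 threshold of 1, Benjamini-Hochberg adjustment, edgeR's exact test at an assumed coefficient of variation (biological) of 0.2, 0.5 added to every count, a correction for GC content and length, and plexins without neuropilins. The steps were tested on simulated data. The tools were edgeR 4.0.16 and DESeq2 1.42.0 in R 4.3.3, and scipy 1.17.1, pandas 2.3.3, numpy 2.4.6 and matplotlib 3.10.9 in Python 3.11.15.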

Additional observations from a re-analysis of the deposited data

Results flagged for a closer look

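Some members had opposite signs in comparisons of the same contrast. Each comparison rests on 1 library per condition, so these differences were not tested. Between CxH vs. CxWT and MH vs. MWT, Plxna1 had log2 ratios of -0.17 and 0.37, and Sema4d had -0.14 and 0.26. Between CxH vs. MH and CxWT vs. MWT, Plxna2 had -0.15 and 0.12, Plxna3 -0.32 and 0.50, and Plxna4 -0.15 and 0.37. In the same comparisons Plxnb3 had -0.41 and 0.22, Sema4g -0.17 and 0.69, and Sema6d -0.12 and 0.13. None of these ratios reached the threshold of 0.7 in size. Corrected for GC content and length, 4 of the 8 no longer had opposite signs, with Plxna1 at -0.44 and -0.30, Sema4d at -0.26 and about 0, Plxna2 at -0.06 and -0.03, and Plxnb3 at -0.49 and -0.14.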

How the results depend on the processing

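With a log2 threshold of 1, the members called numbered 6 (CxH vs. CxWT), 2 (MH vs. MWT), 0 (CxH vs. MH), 1 (CxWT vs. MWT), 5 (CxH vs. MWT) and 5 (MH vs. CxWT), against 11.03%, 12.9%, 1.13%, 2.32%, 15.4% and 8.38% of all genes. With an assumed coefficient of variation of 0.2 between pools they numbered 5 (MH vs. MWT), 0 (CxH vs. MH), 2 (CxWT vs. MWT) and 7 (CxH vs. MWT), against 17.7%, 1.504%, 3.83% and 21.7% of all genes. The correction for GC content and length left 0 in both pairs of area labels (CxH vs. MH, CxWT vs. MWT; 2.41% and 3.09% of all genes), and the column totals left 2 in CxWT vs. MWT (6.85%). Except for these, the counts of members called stayed within 1.5 times the values reported, under each of the alternatives run. The counts in CxH vs. CxWT went from 10 to 11 with TMM or DESeq2 factors, where 20.3% of all genes were called. TMM factors raised the log2 ratios by 0.09 in CxH vs. CxWT and 0.11 in MH vs. CxWT relative to aligned reads, where the median of well read genes was -0.10 and -0.11 with aligned reads. In MH vs. MWT the calls of Sema4g (-0.70), Sema6a (-0.66) and Sema6d (-0.69) were lost with TMM or DESeq2 factors (values with TMM), and at the coefficient of variation of 0.2. The difference between the medians of ligands and receptors changed sign with the correction in CxH vs. CxWT (-0.0071) and MH vs. CxWT (0.056), and with plexins alone in CxH vs. MWT (-0.049).

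No paired analysis was run, although the Cx and M pools of a genotype are stated to come from the same brains. Each condition is 1 library and the labels carry no replicate numbers. With 1 library per condition, no library was left out. Variation between mice, and between pools, was not measured. Members with few reads, such as Sema3g (71 reads in MWT) and Sema3b (70), carry wide intervals, 0.36 to 1.22 for the log2 ratio of Sema3g in CxWT vs. MWT.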
